A study of Mus musculus with 2 samples.

Results

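The 10 genes described here encode the machinery that receives Wnt ligands at the cell membrane: the coreceptor genes Lrp5 and Lrp6, the Frizzled receptor genes Fzd1, Fzd2, Fzd6, Fzd7 and Fzd8, and the Dishevelled genes Dvl1, Dvl2 and Dvl3. They were chosen by symbol, and all 10 were among the 15239 genes of the deposited table. The table held 2 libraries of messenger RNA from normal mouse mammary gland. Scramble control was a library of mammary basal cells with a scrambled short hairpin RNA, and Cdk14-sh a library of such cells with a hairpin against Cdk14. The labels give no age, strain, hairpin sequence or number of animals. With 1 library in each group there is no replicate to check a difference against, so no test was run and no p-value is printed.

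A Frizzled protein is a membrane receptor with an extracellular domain that binds Wnt ligands, and Lrp5 and Lrp6 are single-pass coreceptors that bind the same ligand. When the ligand brings them together, kinases phosphorylate the intracellular tails of Lrp5 and Lrp6, and Dishevelled proteins gather at the Frizzled receptor. Axin is then drawn to the membrane and beta-catenin escapes degradation. Cdk14, in a complex with cyclin Y, is among the kinases that phosphorylate the Lrp6 tail. In the mammary gland, Wnt signalling is known for its part in the maintenance of basal stem cells.

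Short stretches of coding sequence mark the places where these proteins meet. The tails of Lrp5 and Lrp6 carry proline-rich sites whose serine is the target of Cdk14 with cyclin Y. The coding frame was searched for 3 proline codons, a serine codon, a proline codon, any codon, and a serine or threonine codon. The search found 2 such sites in each gene. Sites with a threonine codon in place of the first serine, or with fewer proline codons before it, were not searched for. The 2 are therefore not a count of all sites in the tail. Across 21592 mouse coding genes, 0.157% held at least 1 site of the form searched for. The sites found are shown because they are on the substrate side of the targeted kinase. Codons of the site are in capitals, with 6 bases of flank on each side (GRCm38, GENCODE M21 transcripts, spliced sense strand).
Lrp6 first site, chr6:134453618-134453638 (minus strand): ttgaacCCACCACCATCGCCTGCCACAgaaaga
Lrp5 first site, chr19:3586451-3586471 (minus strand): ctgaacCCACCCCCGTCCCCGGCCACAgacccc
Lrp6 second site, chr6:134450798-134450818 (minus strand): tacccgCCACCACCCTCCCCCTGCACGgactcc
Lrp5 second site, chr19:3585042-3585062 (minus strand): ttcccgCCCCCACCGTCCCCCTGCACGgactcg

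The serine codon of the first site was codon 1490 of 1613 in Lrp6 and codon 1502 of 1614 in Lrp5, and both lay in exon 22 of their transcripts. The second site lay in exon 23 and began 99.4% of the way along the coding sequence in both genes. Over their coding sequences the coreceptor genes were identical at 68.4% of 4775 aligned bases.

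On the receptor side, the Frizzled tail holds a lysine, a threonine, any 3 residues and a tryptophan, a site known to bind the Dishevelled PDZ domain. The matching codons were found once in each of the 5 Frizzled genes, and at least once in 2.10% of the 21592 coding genes. The sites of 4 of them are shown, with the 6 codons in capitals, because these genes differed in direction between the libraries.
Fzd1, chr5:4755706-4755723 (minus strand): tccggcAAGACACTGAATTCCTGGaggaag
Fzd2, chr11:102606373-102606390 (plus strand): tccggcAAGACACTGCACTCGTGGaggaag
Fzd7, chr1:59484607-59484624 (plus strand): tcgggcAAGACCCTGCAGTCATGGcgtcgc
Fzd6, chr15:39033949-39033966 (plus strand): agcaaaAAGACGTGCACAGAATGGgccggg

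In Fzd1, Fzd2 and Fzd7 the site began 96.1% to 96.6% of the way along the coding sequence. In Fzd6 it began at codon 498 of 709, or 70.2% of the way along. Fzd1, Fzd2 and Fzd7 formed the closest group by coding sequence, with identities of 78.6% to 82.1% of aligned bases. Fzd6 was the most distant, with 60.4% to 62.7% identity to the other 4. The Dishevelled genes were identical to each other at 71.4% to 73.8% of aligned bases.

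Similar genes can share reads, so each member's longest coding transcript was cut into all its words of 50 bases. No word was shared between any of the 10 genes. Lrp5, Lrp6, Fzd1, Fzd2, Fzd7, Fzd8 and Dvl1 shared none with any other annotated gene. Fzd6 shared 2.41% of its words with Gm26704 on the opposite strand, Dvl3 shared 1.51% with 1039 genes, and Dvl2 shared 16.3% with Acadvl and Mir324. Acadvl, a mitochondrial fatty acid dehydrogenase gene on the strand opposite to Dvl2, was at 62.2 FPKM in Scramble control and 54.4 FPKM in Cdk14-sh. The use of strand in the authors' counting is not stated in the labels, so the level of Dvl2 is uncertain.

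FPKM counts a gene's fragments relative to the gene's length and to the size of the library, so levels can be compared between genes. Totals of 10186924 reads in Scramble control and 10177185 reads in Cdk14-sh were inferred from the values, with the commonest low value taken as 2 reads. They are not given by the labels. Cdk14 was at 2.06 FPKM in Scramble control and 0.713 FPKM in Cdk14-sh, which was 34.5% of the control level (ratio interval for counting error 0.260 to 0.459). All 9 basal markers were present, with summed levels of 4388 FPKM in Scramble control and 3121 FPKM in Cdk14-sh, most of it from Krt14, Krt17 and Acta2. They differed in both directions, 3 being above their control level and 6 below it. The basal regulator gene Trp63 was at 8.42 and 23.9 FPKM and the keratin gene Krt5 at 129 and 242 FPKM, while the contractile genes Cnn1 and Myh11 were at 359 and 107 FPKM and at 104 and 46.6 FPKM. The labels do not fully agree on the material, since the design text names a human breast cancer line and the extraction protocol names retinas, while the gene identifiers are those of mouse. Measured genes are the 12819 whose mean over the libraries reached 1 FPKM, a mean that a high value in 1 library alone can reach. On the scale of log2(FPKM + 1), 14.3% of them lay above Scramble control by 2-fold or more in Cdk14-sh and 13.5% below it by as much. By the plain FPKM ratio, with nothing added, the shares were 18.4% and 17.4%. Counts of genes past 2-fold are on the former scale unless the plain ratio is named, and the fold of a single gene is its plain ratio. Large differences were therefore common between these libraries.

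The coreceptor genes were at nearly the same level in both libraries. Lrp6 was at 9.41 FPKM in Scramble control and 9.24 FPKM in Cdk14-sh, from 1311 and 1285 reads. Its ratio was 0.981, with a 95% interval for counting error of 0.879 to 1.10, so these libraries hold no difference in Lrp6 beyond counting error. Lrp5 was far lower, at 0.363 FPKM and 0.444 FPKM from 36 and 44 reads. Its ratio of 1.22 had an interval of 0.626 to 2.42, so a difference of up to about that size was not detectable at this depth. Lrp6 made up 96.3% of the summed FPKM of the coreceptor genes in Scramble control and 95.4% in Cdk14-sh. By FPKM, Lrp6 was thus at 25.9 times the level of Lrp5 in Scramble control and 20.8 times in Cdk14-sh. These ratios are approximate, because they rest on few Lrp5 reads and on the gene lengths used.

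**Figure D1:**
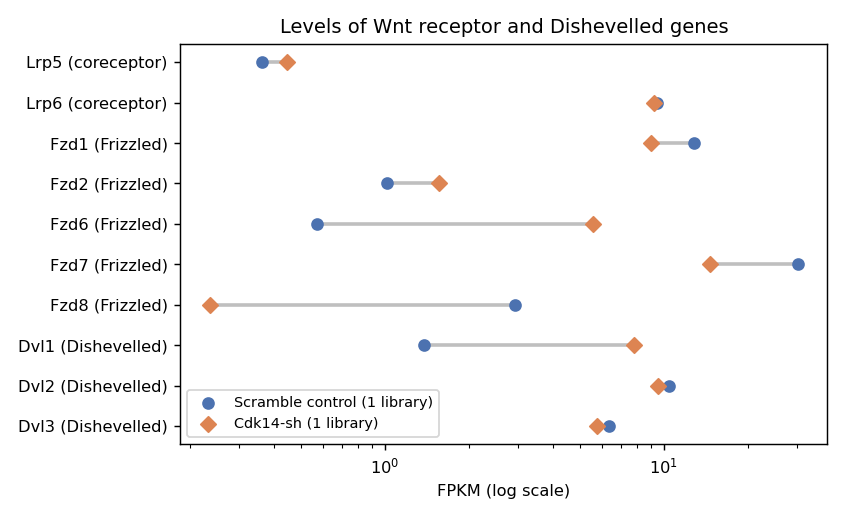
FPKM of the 10 genes on a log axis, with a circle for the Scramble control library, a diamond for the Cdk14-sh library and a grey line joining them. Lrp6, Dvl2 and Dvl3 nearly coincide, while Fzd6 and Dvl1 lie to the right and Fzd7 and Fzd8 to the left in Cdk14-sh.

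The Frizzled genes differed in both directions. Fzd7, a receptor known from mammary stem cells, was the most abundant of them in both libraries, at 30.3 FPKM in Scramble control and 14.6 FPKM in Cdk14-sh. It was 2.08-fold lower in Cdk14-sh (interval 1.82 to 2.37), from 1397 and 672 reads. Its log2 ratio of -1.01 was just past the 2-fold limit. Fzd1, its close relative, was next in both libraries, at 12.8 and 8.99 FPKM, and was 1.43-fold lower (1.19 to 1.73). Fzd8 was at 2.93 FPKM in Scramble control and 0.235 FPKM in Cdk14-sh, the lowest level of the 10 genes there. From about 179 and 14 reads, it was 12.5-fold lower, with an interval of 5.92 to 32.5.

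Against these, Fzd6 was higher in Cdk14-sh. This receptor is known mainly from planar cell polarity and from dampening of beta-catenin signalling. It was at 0.570 FPKM in Scramble control and 5.56 FPKM in Cdk14-sh, from about 28 and 273 reads. The ratio of 9.76 (5.60 to 18.3) was the highest of the 10. Fzd2 was low in both libraries, at 1.02 and 1.56 FPKM. Its ratio of 1.53 came from 38 and 58 reads and its interval, 0.828 to 2.88, held 1. The read numbers of Fzd6 and Fzd8 were not whole with the annotated lengths, so they and their intervals are approximate.

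The Frizzled genes outside the 10 also differed in part. Of 10 Frizzled genes in the mouse genome, 9 were listed. Fzd4, a receptor for Norrin in vessels, was at 0.0584 FPKM in Scramble control and 3.04 FPKM in Cdk14-sh, from 4 and 208 reads. Fzd10 was at 0.242 and 2.18 FPKM, from 8 and 72 reads. Fzd5 was at 4.27 and 2.64 FPKM, and Fzd3 was at 5.81 and 5.21 FPKM.

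The make-up of the receptor pool can be given within each library, where it does not depend on how the libraries are scaled. Fzd7 held 52.2% of the summed FPKM of the 9 listed Frizzled genes in Scramble control and 33.1% in Cdk14-sh. Fzd6 held 0.983% and 12.6%, and moved from the seventh to the third place. Fzd8 held 5.06% and 0.534%, and moved from the fifth to the last place. Fzd1 held 22.1% and 20.4%. The sum over the 9 genes was 58.0 FPKM in Scramble control and 44.0 FPKM in Cdk14-sh. The order of Fzd6 and Fzd8 was reversed. By FPKM, Fzd8 was at 5.15 times the level of Fzd6 in Scramble control, and Fzd6 at 23.7 times that of Fzd8 in Cdk14-sh.

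**Figure D2:**
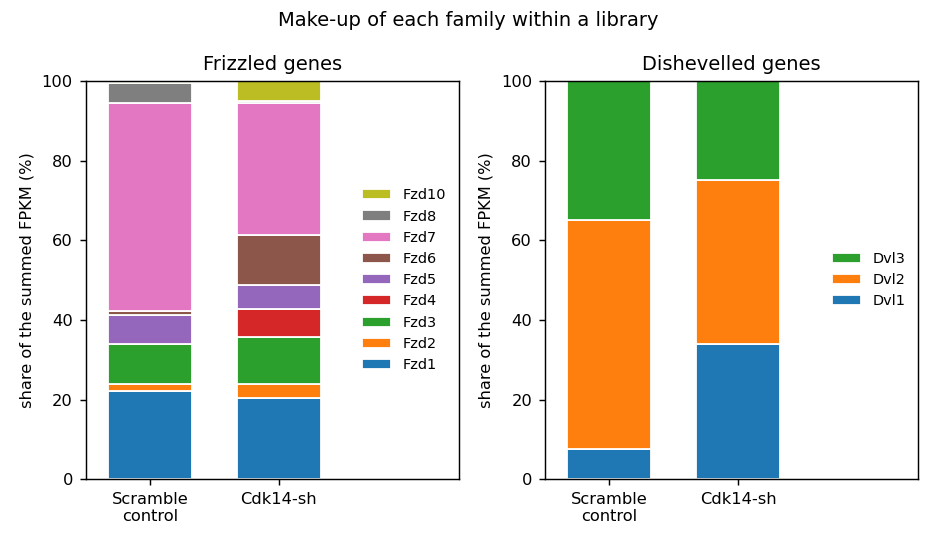
Share of each gene in the summed FPKM of the 9 listed Frizzled genes (left) and the 3 Dishevelled genes (right), in percent, with 1 bar for each library. Fzd7 fills 52.2% of the Scramble control bar and 33.1% of the Cdk14-sh bar, and Dvl1 fills 7.55% and 33.9%.

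Among the Dishevelled genes, which encode the adaptors that link Frizzled receptors to Axin, Dvl1 alone differed by 2-fold or more. Dvl1 was at 1.38 FPKM in Scramble control and 7.83 FPKM in Cdk14-sh, from 70 and 398 reads. It was 5.69-fold higher in Cdk14-sh, with an interval of 3.96 to 8.40. Dvl2 was at 10.5 and 9.51 FPKM, with a ratio of 0.908 (0.776 to 1.06). Dvl3 was at 6.37 and 5.76 FPKM, with a ratio of 0.903 (0.739 to 1.11). The read numbers of Dvl2 and Dvl3 were not whole either, so their intervals are approximate. Both intervals held 1, and the level of Dvl2 relative to Dvl3 was 1.64 in Scramble control and 1.65 in Cdk14-sh.

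Dvl1 was the least abundant of the Dishevelled genes in Scramble control and the second in Cdk14-sh. Its share of their summed FPKM was 7.55% in Scramble control and 33.9% in Cdk14-sh. The sum itself was 18.2 FPKM in Scramble control and 23.1 FPKM in Cdk14-sh. Of the exonic bases of Dvl1, 0.721% overlap the taste receptor gene Tas1r3 on the opposite strand, which had 1 and 4 reads.

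**Figure D3:**
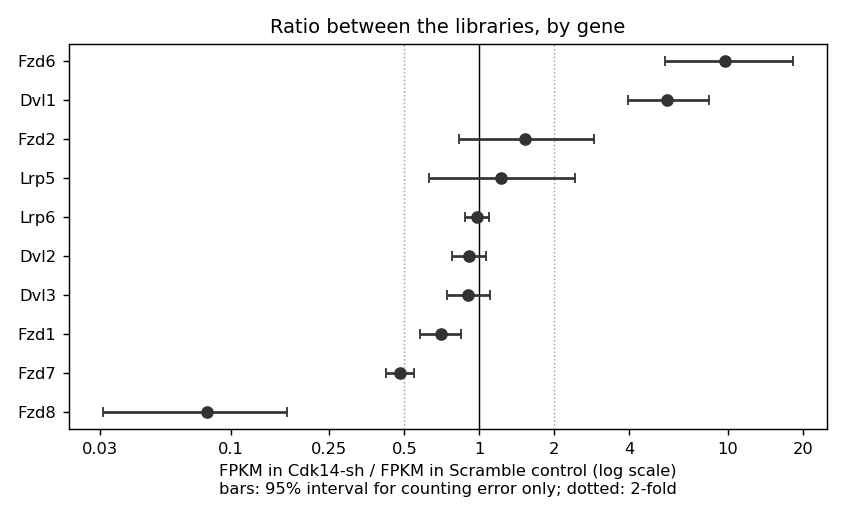
Ratio of FPKM in Cdk14-sh to FPKM in Scramble control for the 10 genes on a log axis, with bars for the 95% interval of counting error alone and dotted lines at 2-fold. The intervals of Fzd6 and Dvl1 lie above 1, those of Fzd1, Fzd7 and Fzd8 below 1, and the other 5 hold 1.

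Across the 10 genes, Fzd6 and Dvl1 (2 genes) were higher by 2-fold or more in Cdk14-sh, and Fzd7 and Fzd8 (2 genes) lower by as much, and the plain ratio gave the same counts. Among all listed genes without a filter on low values, 13.1% were higher and 11.7% lower by this limit. The median log2 ratio of the 10 was -0.08, and that of all listed genes was 0.03. A mean of 1 FPKM was reached by 9 of the 10, and not by Lrp5. Fzd6 and Fzd8 reached it only through the library in which they were high. The interval for counting error lay above 1 for 2 of the 10 genes and below 1 for 3, together 5. Of all listed genes with a length it lay above 1 for 34.2% and below 1 for 29.7%, together 63.8%, so a difference beyond counting error was ordinary here.

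Low genes scattered more than abundant ones. Of genes with a mean from 1 to under 5 FPKM, 35.9% differed at least 2-fold in either direction. In that range lay Fzd2, Fzd6, Fzd8 and Dvl1, and 3 of these 4 did. Fzd6 and Fzd8 entered the range only through the library in which they were high, so this count is not independent of the filter. Of genes at a mean of 5 FPKM or more, 23.0% differed at least 2-fold. There lay Lrp6, Fzd1, Fzd7, Dvl2 and Dvl3, of which Fzd7 did. By log2 ratio, 2.87% of the 12819 measured genes stood above Fzd6 and 3.93% above Dvl1. At the other end, 4.52% stood below Fzd8 and 13.4% below Fzd7.

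**Figure D4:**
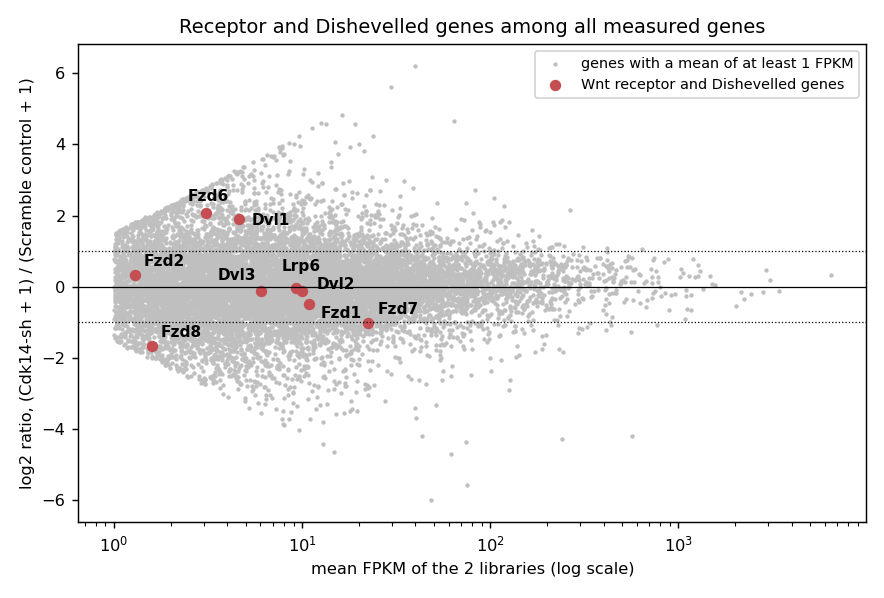
Log2 ratio of Cdk14-sh to Scramble control, with 1 FPKM added to each value, against the mean FPKM of the 2 libraries on a log axis. Grey points are the 12819 measured genes and red points are 9 of the 10 receptor and Dishevelled genes; dotted lines mark 2-fold, and all 9 lie within the cloud of other genes.

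Markers of other kinds of cell differed between the libraries as well. The 8 endothelial markers listed of 9 (Kdr was not) summed to 164 FPKM in Scramble control and 19.9 FPKM in Cdk14-sh. By 2-fold or more, 6 of them were lower, beside 13.5% of all measured genes. The defining endothelial genes Pecam1 and Cdh5 were at 16.9 and 12.8 FPKM in Scramble control and 1.96 and 1.82 FPKM in Cdk14-sh. Immune markers went the other way, with 105 and 386 FPKM over the 6 of 8 genes that were listed. The leukocyte gene Ptprc was at 0.482 and 0.247 FPKM. Every list held genes of both directions, with 1 endothelial marker above its control level and 7 below, and 5 immune markers above and 1 below. The sums therefore follow the most abundant genes of each list. Pericyte markers summed to 127 and 59.6 FPKM over 4 of 6 genes. Of these 4, 3 were lower by 2-fold or more, beside 13.5% of all measured genes. The fourth, Des, was at 0.0523 and 2.41 FPKM. Fibroblast markers summed to 298 and 110 FPKM over 5 of 8 genes. The fall in that sum came from Dcn and Gsn, while Col1a1, Col1a2 and Col3a1 were higher, the last at 1.18 and 8.77 FPKM, and the median log2 ratio of the list was 0.84. Luminal markers summed to 1221 and 666 FPKM over 8 of 9 genes. Krt8, Krt18 and Epcam were lower and the other 5 higher, among them the hormone receptor genes Esr1, at 0.0862 and 1.55 FPKM, and Prlr, at 0.154 and 1.77 FPKM. The part of these other cell markers in the differences of the Frizzled and Dishevelled genes was not tested. In such bulk samples, fewer cells of a type and less RNA per cell cannot be told apart.

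The promoter table of RefSeq (GRCm38.p6) held 5 of the 10 genes: Fzd1, Fzd7, Dvl1, Dvl2 and Dvl3. The 250 bases before the start are shown for Fzd1 and Fzd7, which were lower together in Cdk14-sh, and for Dvl1, which was higher. Capitals mark the core letters CTTTGA or CTTTGT of the TCF/LEF motif, through which beta-catenin acts on its targets, on either strand.
Fzd1, chr5:4758217-4758466 (minus strand): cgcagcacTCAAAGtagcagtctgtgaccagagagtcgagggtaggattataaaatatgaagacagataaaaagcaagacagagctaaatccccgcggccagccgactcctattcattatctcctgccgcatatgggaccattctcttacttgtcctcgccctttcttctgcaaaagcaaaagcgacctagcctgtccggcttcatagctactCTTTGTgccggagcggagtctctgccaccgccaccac
Fzd7, chr1:59481897-59482146 (plus strand): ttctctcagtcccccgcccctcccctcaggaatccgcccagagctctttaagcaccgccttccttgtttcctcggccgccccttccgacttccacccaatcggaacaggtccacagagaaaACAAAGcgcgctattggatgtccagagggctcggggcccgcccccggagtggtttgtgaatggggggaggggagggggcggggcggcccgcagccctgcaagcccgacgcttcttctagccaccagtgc
Dvl1, chr4:155847152-155847401 (plus strand): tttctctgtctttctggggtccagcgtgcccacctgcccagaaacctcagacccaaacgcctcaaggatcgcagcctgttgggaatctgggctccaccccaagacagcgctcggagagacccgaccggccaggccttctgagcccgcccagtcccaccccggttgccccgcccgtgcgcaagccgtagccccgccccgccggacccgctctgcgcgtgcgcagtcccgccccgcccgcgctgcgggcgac

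Fzd1 held 1 CTTTGA and 1 CTTTGT, Fzd7 held 1 CTTTGT, and the windows of Dvl1, Dvl2 and Dvl3 held neither. Of 32851 RefSeq promoter windows of this length, 27.6% held at least 1 of the cores. The GC box GGGCGG was counted on both strands with overlapping matches. It occurred 6 times in Fzd7, 5 times in Dvl1, 4 times in Dvl2 and 3 times in Dvl3, and not in Fzd1. It occurred in 32.7% of all windows. The GC content was 51.2% in Fzd1, 65.2% in Fzd7, 71.2% in Dvl1, 60.8% in Dvl2 and 72.8% in Dvl3. The median over all windows was 52.4%. A match describes the letters alone and is no evidence of binding.

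Other genes of the pathway were compared by lists of their role. The median log2 ratio over all measured genes was 0.02. Of 14 kinases and cyclins that act at Lrp5 and Lrp6, 13 differed by less than 2-fold on the scale with 1 FPKM added, with a median of 0.15. The remaining gene was the cyclin Y relative Ccnyl1, at 15.9 and 1.42 FPKM. Of all measured genes, 14.3% were higher and 13.5% lower by 2-fold or more on that scale, so most genes also differed by less. By the plain ratio 2 genes were lower by 2-fold or more, Ccnyl1 and Cdk14 itself (2.90-fold), and 1 was higher, the receptor kinase gene Grk5. By that ratio, 17.4% of all measured genes were lower and 18.4% higher by as much. Grk5 was at 1.36 and 3.32 FPKM, a ratio of 2.43. Cyclin Y itself (Ccny) was at 7.36 and 12.1 FPKM.

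Genes for the maturation and turnover of the receptors had 11 measured members of 18, with 2 lower by 2-fold or more and none higher by as much, where 13.5% of all measured genes were lower. Rnf43, a ubiquitin ligase that removes Frizzled from the surface, was at 8.26 and 2.32 FPKM, 3.56-fold lower (2.74 to 4.61). Its paralogue Znrf3 was more abundant, at 37.0 and 35.9 FPKM, with a ratio of 0.969 (0.901 to 1.04). Znrf3 was named after its values were seen. Shisa2, which retains Frizzled in the endoplasmic reticulum, was at 15.5 and 5.50 FPKM. Mesd, the chaperone that folds Lrp5 and Lrp6, was at 4.87 and 10.3 FPKM. It was 2.11-fold higher by the plain ratio, while on the log2 scale with 1 FPKM added its ratio of 0.94 fell short of 2-fold. Tmem59 was at 194 and 278 FPKM.

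Of 15 measured partners and regulators of Dishevelled, 3 (Dact3, Nkd1 and Dab2) were lower by 2-fold or more and none higher by as much, beside 13.5% of all measured genes that were lower. By the plain ratio Arrb2, at 1.66 and 0.622 FPKM, made 4 lower, beside 17.4% of all measured genes. Dact3, a Dishevelled antagonist, was at 2.69 and 0.131 FPKM, from 82 and 4 reads, and Nkd1, another, at 6.89 and 2.24 FPKM. Dact3 and Arrb2 reached a mean of 1 FPKM only through Scramble control, so their place among the lower genes is tied to the filter. Vangl1, a planar polarity gene, was at 8.94 and 16.7 FPKM and the small GTPase gene Rhoa at 23.9 and 33.5 FPKM. Nkd2, the paralogue of Nkd1, was 1.34-fold higher, at 11.6 and 15.5 FPKM. Dab2, Arrb2 and Nkd2 were named after their values were seen.

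Of the 5 measured secreted antagonists, 2 were at least 2-fold lower, beside 13.5% of all measured genes. The 2 were Sfrp2, at 18.3 and 6.0 FPKM, and Dkk3, at 48.0 and 21.5 FPKM. Sostdc1, which binds Lrp5 and Lrp6, was at 19.8 and 38.7 FPKM, and Sfrp1 at 75.5 and 76.9 FPKM. Among 9 measured ligand and secretion genes, 2 were at least 2-fold lower (Wnt16 and Wnt6) and none higher with 1 FPKM added. Of all measured genes, 13.5% were lower and 14.3% higher by as much. The median log2 ratio of the ligand and secretion genes was -0.49. Wnt16, at 2.70 and 0.0451 FPKM from 120 and 2 reads, reached a mean of 1 FPKM only through Scramble control. Wnt11, at 3.46 and 7.03 FPKM, was 2.03-fold higher by the plain ratio (1.52 to 2.72). Wnt6 was at 4.61 and 1.52 FPKM.

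Downstream, 8 genes of the destruction complex and beta-catenin were measured. Of these, 1 (Btrc) was lower by 2-fold or more, beside 13.5% of all measured genes. Beta-catenin (Ctnnb1) was at 22.2 and 44.3 FPKM, 2.0-fold higher (1.81 to 2.21), with a log2 ratio of 0.97. The ligase subunit gene Btrc, which marks beta-catenin for degradation, was at 5.37 and 2.14 FPKM, 2.50-fold lower (2.10 to 2.98). The read numbers of Ctnnb1 and Btrc were not whole, so their intervals are approximate. Fbxw11, the more abundant paralogue of Btrc, was at 24.7 and 31.9 FPKM, 1.29-fold higher (1.15 to 1.44). Of 15 measured target genes of the pathway, 3 were higher and 4 lower by 2-fold or more, with a median of -0.04. Of all measured genes, 14.3% were higher and 13.5% lower by as much. The target with the highest ratio, Tnfrsf19, was at 0.0411 and 9.65 FPKM. It reached a mean of 1 FPKM only through Cdk14-sh. The matricellular gene Ccn4, found by its gene identifier, was at 1.49 and 6.18 FPKM, and Procr was at 14.2 and 3.05 FPKM. Rnf43 and Nkd1, given above, are also on the target list and were among its 4 lower genes, so the lists overlap. The targets thus had no common direction.

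**Figure D5:**
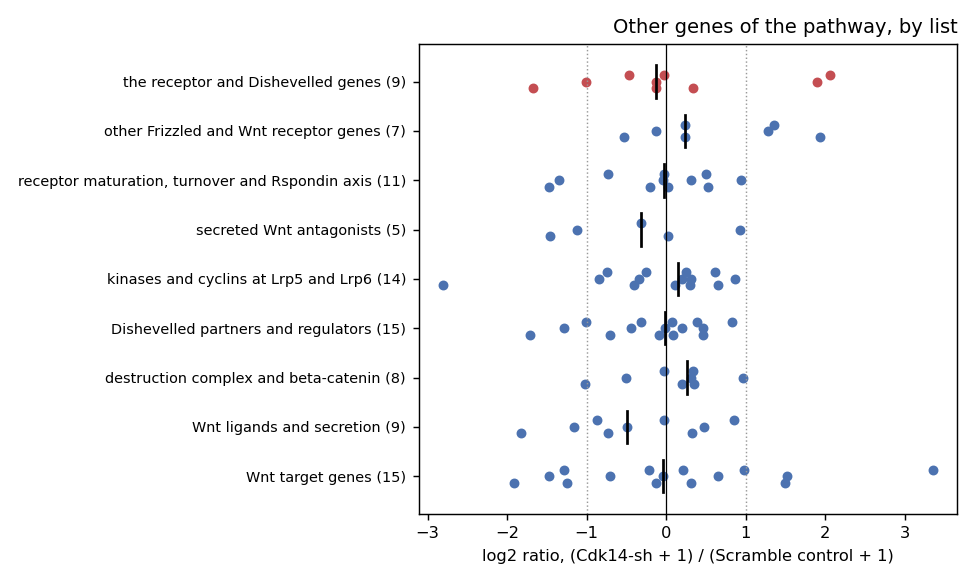
Log2 ratio of Cdk14-sh to Scramble control for each measured gene of the pathway, by list, with 1 point a gene, a vertical bar at the list's median, the number of genes in parentheses and dotted lines at 2-fold. The receptor and Dishevelled genes (red) run from -1.67 to 2.06 around a median of -0.13, and with 1 FPKM added to each value, as plotted, the kinases and cyclins at Lrp5 and Lrp6 lie within 2-fold but for Ccnyl1.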

How the data were processed

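Messenger RNA of 2 libraries was analysed, 1 for each group, from 1 table of FPKM values deposited by the authors. Column names abbreviate the sample titles and were matched to them. Per the submitters' processing notes, Bowtie 0.12.2 and featureCounts of Subread 1.5.1 were used, and mm8 and GRCm38 are listed as builds with no role given. Every listed gene is above 0 in both libraries, so a gene found in a single library enters no count.

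The 10 genes, lists and limits were chosen with earlier results of these data known. The log2 ratio is that of (FPKM + 1), which understates differences of low genes, and folds are plain FPKM ratios. Of rows sharing a symbol, that of highest mean was used. Named genes are the 10 members, Cdk14, and the 2 highest and 2 lowest measured genes of each list, of which those that add to the account are printed. Reads were recovered from FPKM with exonic lengths of GENCODE M21. For 79.1% of 15195 genes they were multiples of 0.5 reads in both libraries (tolerance 0.01 reads). The commonest low value was taken as 2 reads, and 2 reads as 1 fragment. Each interval is the exact Clopper-Pearson interval (95%) of the Cdk14-sh share of a gene's fragments, converted to a ratio. It covers counting error only, because without molecular identifiers reads are not separate molecules. The totals and read numbers rest on the 2-read assumption and on the annotated lengths. Recovered reads over all genes came to 112% of each inferred total. That share does not depend on the 2-read assumption, and the cause of the excess was not tested. The calculation was tested on simulated data built with the same lengths and 2 reads per fragment. That test could therefore not check these assumptions. Alternatives were pseudocounts, scalings, filters, fold limits, summed symbols, leaving out overlapping genes and, added after seeing the data, counts by plain FPKM ratio. Python 3.11.15, scipy 1.17.1 and Biopython 1.88 were used.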

Additional observations from a re-analysis of the deposited data

How the results depend on the processing

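No paired analysis was possible because each group held 1 library, and no replicate could be left out. Of 60 values of single genes under another pseudocount, scaling or summing of symbols, 54 kept within the counting interval and none changed sign. The other 6 came from the pseudocount, which by construction sets the log2 ratio of low genes. With 0.1 FPKM added, the log2 ratio was 3.08 for Fzd6, 2.43 for Dvl1 and -3.18 for Fzd8. With 5 FPKM added it was 0.92, 1.01 and -0.60. The count of genes at least 2-fold higher was then 1 and of those lower 0. At a mean of at least 5 FPKM, which leaves 5 of the genes, the counts were 0 higher and 1 lower. With a 4-fold limit they were 1 and 0. Leaving out genes that share any exonic base with another gene removed Fzd6, Dvl1 and Dvl2 and left 0 higher. The 3 scalings divided the Cdk14-sh values by 1.01 to 1.02 and moved neither count. The median log2 ratio of the genes lay between -0.30 and -0.08 under every alternative. Depth limits Lrp5 and Fzd2, with under 60 reads in each library.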

Other observations

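The neighbours of these genes on the chromosome were looked up after their values were seen, as the nearest listed protein-coding gene on each side (GENCODE M21, GRCm38). The neighbour of Fzd1 is Cdk14 itself. Both lie on the minus strand of chromosome 5, and a gap of 45.4 kb separates Fzd1 from the 3′ end of Cdk14. Fzd1 was at 12.8 FPKM in Scramble control and 8.99 FPKM in Cdk14-sh, and Cdk14 at 2.06 and 0.713 FPKM. On its other side Cdk14 has Cldn12, a tight junction gene, 69.2 kb away, at 11.03 and 17.8 FPKM. The neighbour of Fzd8 is Ccny, the cyclin partner of Cdk14, 94.2 kb away on chromosome 18. These neighbours differed in opposite directions, with Fzd8 at 2.93 and 0.235 FPKM and Ccny at 7.36 and 12.1 FPKM.

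Dvl1 lies between Mxra8, 3.31 kb away, and Cptp, 5.42 kb away. Mxra8 was 3.23-fold lower in Cdk14-sh, at 7.40 and 2.29 FPKM. Cptp, a lipid transfer gene, was higher like Dvl1, at 0.0725 and 3.99 FPKM from 2 and 110 reads, which is a ratio of 55.1 (9.48 to 2214). Fzd6 lies between Baalc, at 2.47 and 0.928 FPKM, and the secreted Wnt cofactor gene Cthrc1, 38.7 kb away, at 5.57 and 22.2 FPKM. No cause of these patterns was tested.

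The promoter window of Dvl2 held the E-box letters CACGTG 3 times, and those of Dvl1 and Dvl3 not at all. The letters occurred in 6.02% of the 32851 RefSeq windows.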
